A study of Bos taurus with 16 samples.

Results

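The proteasome genes were followed in the uterine lining and in embryos of superovulated cows. Some of the cows had subclinical endometritis, in which the lining is inflamed and the animal looks well. Members were the probe sets whose annotation gave exactly 1 gene symbol beginning with PSMA, PSMB, PSMC, PSMD, PSME, PSMF or PSMG. This gave 46 of the array's 24016 non-control probe sets, and 40 of its 9155 singly named genes. Endometrial cells were taken by cytobrush 7 days apart, at insemination (day 0) and at embryo flushing (day 7), and blastocysts came from the day 7 flush. Cows with any polymorphonuclear cells on the brush formed the SE group (subclinical endometritis), and cows with 0 such cells the HE group (healthy). The endometrium groups were SE on day 7 (3 arrays), HE on day 7 (2 arrays), SE on day 0 (3 arrays) and HE on day 0 (3 arrays), and the blastocyst groups SE (3 arrays) and HE (2 arrays). Superovulation was common to all groups. Every array carried RNA of a pool, 10 embryos in the case of blastocysts, and p-values therefore describe how pools, not single cows, varied.

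The proteasome is the cell's main machine for degrading proteins tagged with ubiquitin. Its barrel-shaped core is built of alpha rings at the ends and beta rings within, in which PSMB5, PSMB6 and PSMB7 carry the cutting sites, and a regulatory particle of ATPases (PSMC) and other subunits (PSMD) recognises, unfolds and feeds in the substrate. Under interferon, and constantly in many immune cells, PSMB8, PSMB9 and PSMB10 take the places of PSMB5, PSMB6 and PSMB7, and the activator made of PSME1 and PSME2 can bind the core; this immunoproteasome supplies peptides for MHC class I.

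The 40 genes comprised 6 of the alpha ring, 7 of the constitutive beta ring, 5 of the immunoproteasome, 6 ATPases, 7 other subunits of the regulatory particle, 6 assembly chaperones, the activator PSME4 with the inhibitor PSMF1, and PSME3IP1, which shares the prefix and is not a subunit. The rule would take 50 protein-coding genes of a current cattle annotation, and 10 of these had no member probe set: PSMA2, PSMA8, PSMB11, PSMC3IP, PSMD3, PSMD7, PSMD8, PSMD12, PSME3 and PSMG4. All 40 genes passed the filter on low signal in endometrium (log2 signal above 4 on at least 2 arrays), as did 44 of the 46 probe sets. In blastocysts 38 genes passed. PSMB8 and PSMB10 did not. A gene with several probe sets was represented by the one with the highest mean. All values are log2 signals, and levels of different genes are not set against each other, since each probe set has its own response.

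Median log2 signals lay between 4.18 and 4.30 on the endometrium arrays and between 3.08 and 3.12 on the blastocyst arrays. SE day 0 replicate 2 stood apart from the other day 0 arrays, with a mean correlation of 0.961 to them, against 0.975 to 0.979 for each of the others. Its GAPDH control probe sets differed by 0.58 between the 3′ and 5′ ends, against 0.03 to 0.14 on the other day 0 arrays. On the day 7 arrays this difference ran from 0.22 to 0.57 in SE and from 0.27 to 0.39 in HE, so that all day 7 arrays lay above 5 of the 6 day 0 arrays. The actin control showed no such rise. For EF1A the HE day 7 arrays lay above the HE day 0 arrays, while the SE days overlapped. EF1A ran from -3.28 to -3.03 in SE and from -3.06 to -2.94 in HE on day 7. On day 0 it ran from -3.10 to -2.93 in SE and from -3.27 to -3.11 in HE. Actin ran from -0.48 to -0.44 in SE and from -0.45 to -0.44 in HE on day 7. Its day 0 values were -0.43 to -0.42 in SE and -0.44 to -0.34 in HE. Members varied little within a group: their median within-group SD was 0.18 in endometrium, against 0.24 over all 6810 genes, and ran from 0.07 for PSMC2 to 0.34 for PSMB9.

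Between day 0 and day 7 most of the constitutive beta ring and of the non-ATPase subunits of the regulatory particle fell in both health groups, while the interferon-inducible catalytic subunit PSMB9 rose. In SE endometrium 15 of the 40 members were lower on day 7 and 6 higher, and in HE endometrium 19 were lower and 3 higher (limma, Benjamini-Hochberg adjusted p under 0.05 over all probe sets). Much of the transcriptome moved between these days. In SE, 26.3% of all genes were called lower and 26.5% higher, against 37.5% and 15.0% of the members, and in HE 26.3% were called lower and 21.4% higher, against 47.5% and 7.5% of the members. The median change of the members was -0.31 in SE and -0.45 in HE, beside -0.02 and -0.09 over all genes. The SE and HE day comparisons share no array, but they share the same estimate of spread for each probe set. They called 15 of the same members lower and 3 of the same members higher (PSMB9, PSME4 and PSME3IP1), which is 37.5% and 7.5% of the members, against 21.6% and 19.9% of all genes. No gene tested, member or not, was called in opposite directions. Without SE day 0 replicate 2, 20 members were lower and 3 higher in SE, with a median change of -0.43. Over all probe sets 6505 were called in that fit, against 6723 on all arrays. Shares of all genes in each direction were not computed for it. The GAPDH difference between the 3′ and 5′ ends, given above, was larger on day 7 than on all day 0 arrays but SE day 0 replicate 2. The actin control showed no such rise, and EF1A was higher on day 7 without overlap in HE but not in SE. The part of these control differences in the day changes was not tested.

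**Figure D1:**
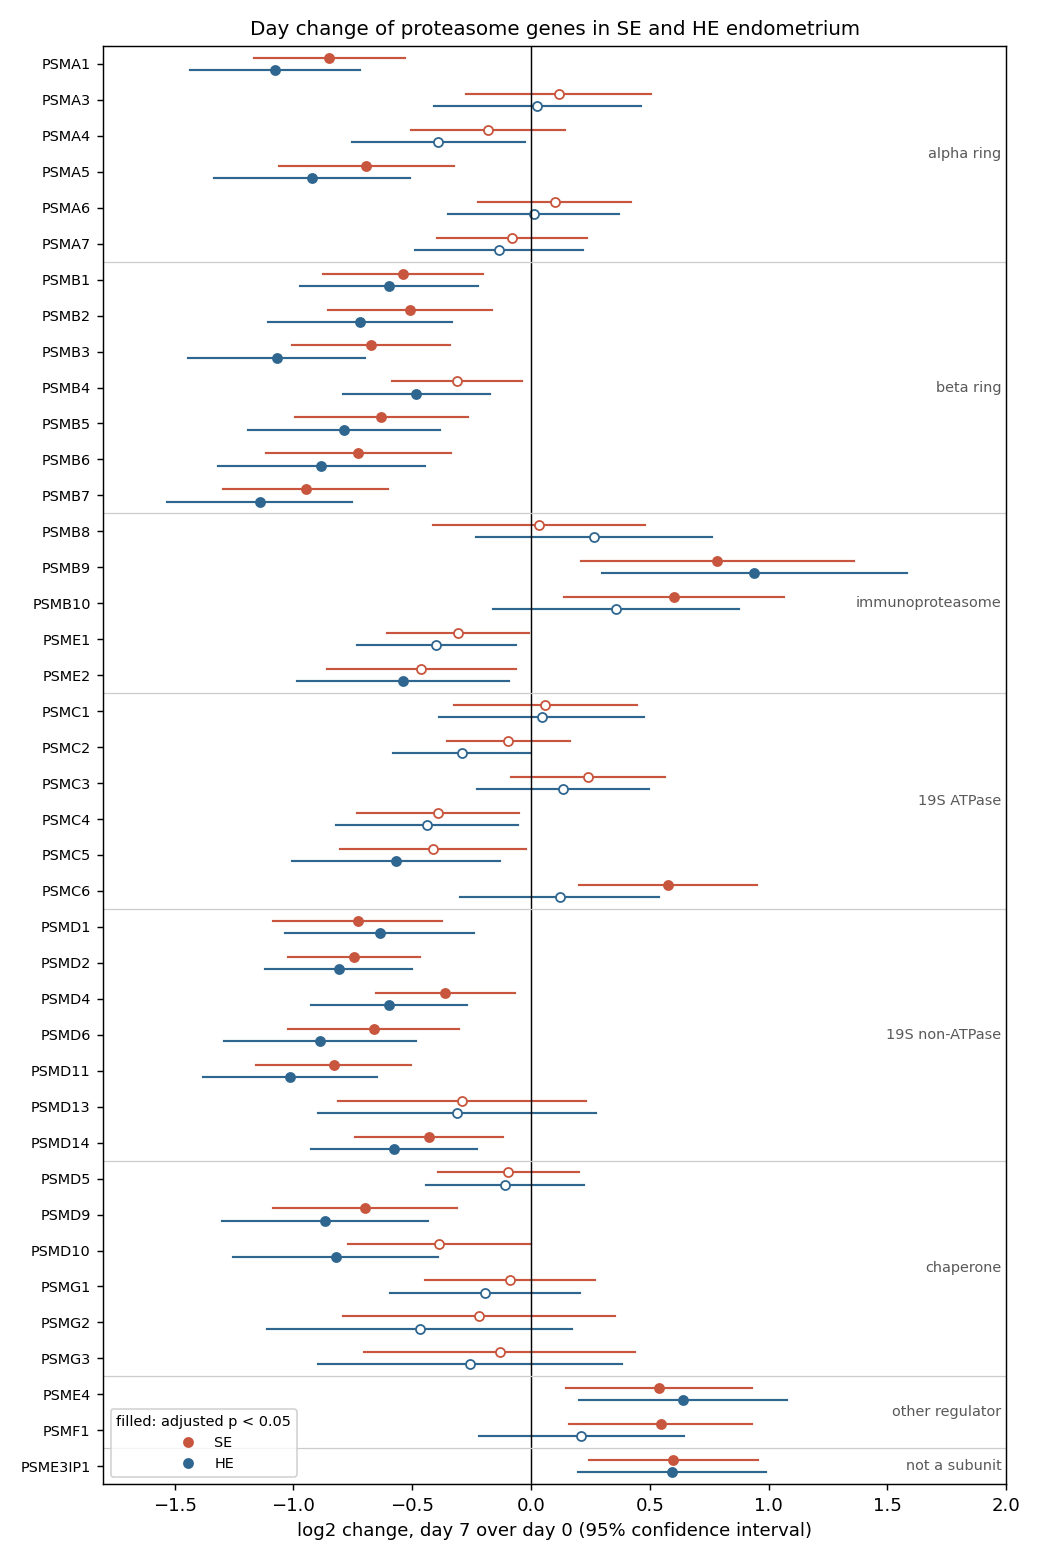
Log2 change from day 0 to day 7 of each of the 40 proteasome genes in SE (red) and HE (blue) endometrium, grouped by role, with 95% confidence intervals; filled points passed the adjusted threshold of 0.05. The constitutive beta ring and the non-ATPase subunits of the regulatory particle lie to the left of 0, and PSMB9 lies to the right in both health groups (0.78 in SE and 0.94 in HE).

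The constitutive beta ring fell almost as a block. In SE 6 of its 7 genes passed the test and in HE all 7, with median changes of -0.63 and -0.79. PSMB7, which carries the trypsin-like site, had the largest fall of the ring. It read 10.28, 10.55 and 10.47 in the SE day 7 pools and 10.39 and 10.17 in the HE day 7 pools, against 11.33, 11.15 and 11.66 in the SE day 0 pools and 11.45, 11.44 and 11.36 in the HE day 0 pools. Every day 7 pool thus lay below every day 0 pool. The change of PSMB7 was -0.95 in SE (standard error 0.16, adjusted p = 0.000654) and -1.14 in HE (standard error 0.17, adjusted p = 0.000518), a 1.93-fold and a 2.21-fold fall. PSMB6, which carries the caspase-like site, read 10.74, 11.28 and 10.98 in SE and 10.87 and 10.72 in HE on day 7, against 11.63, 11.60 and 11.94 in SE and 11.68, 11.84 and 11.50 in HE on day 0, and fell by 0.73 in SE and by 0.88 in HE. PSMB5, the chymotrypsin-like subunit, averaged 12.05 ± 0.12 in SE and 11.95 ± 0.21 in HE on day 7, against 12.68 ± 0.24 in SE and 12.74 ± 0.15 in HE on day 0 (SD, n = 3, 2, 3 and 3), and fell by 0.63 and 0.79. PSMB3, a structural subunit of the ring, fell by 0.67 in SE and by 1.07 in HE. PSMB4 fell by 0.48 in HE (adjusted p = 0.0168), whereas its change in SE was -0.31 (adjusted p = 0.0585).

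The alpha ring, which forms the gate of the core, did not move as one. PSMA1 and PSMA5 fell in both health groups and the other 4 genes passed the test in neither. PSMA1 read 9.86, 9.68 and 10.02 in SE and 9.72 and 9.62 in HE on day 7, against 10.66, 10.55 and 10.90 in SE and 10.73, 10.67 and 10.85 in HE on day 0, so the days did not overlap. Its change was -0.85 in SE (adjusted p = 0.000766) and -1.08 in HE (adjusted p = 0.000424). PSMA5 fell by 0.69 in SE and by 0.92 in HE. PSMA3, PSMA6 and PSMA7 had changes between -0.08 and 0.12 in SE and between -0.13 and 0.03 in HE, and PSMA4 had changes of -0.18 and -0.39 (adjusted p = 0.328 and 0.0767).

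In the regulatory particle the non-ATPase subunits fell and the ATPases were mixed. Of the 7 non-ATPase genes 6 were lower in SE and the same 6 in HE, with PSMD13 the exception (changes of -0.29 and -0.31, adjusted p = 0.328 and 0.363). PSMD11, a structural subunit of the lid, read 9.53, 10.02 and 9.78 in SE and 9.69 and 9.74 in HE on day 7, against 10.55, 10.51 and 10.76 in SE and 10.74, 10.70 and 10.76 in HE on day 0. It was lower on every day 7 array, by 0.83 in SE (adjusted p = 0.00104) and by 1.02 in HE (adjusted p = 0.000729). The scaffold subunits PSMD1 and PSMD2 fell by 0.73 and 0.74 in SE and by 0.64 and 0.81 in HE. PSMD4, a ubiquitin receptor, fell by 0.36 in SE and by 0.60 in HE, and PSMD14, the deubiquitinase that removes the chain before degradation, fell by 0.43 and by 0.58. PSMD6, another lid subunit, fell by 0.66 and by 0.89.

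Among the 6 ATPases, PSMC5 was lower in HE (-0.57, adjusted p = 0.0384; -0.41 in SE, adjusted p = 0.0745), and PSMC6 was higher in SE (0.58, adjusted p = 0.0162; 0.12 in HE, adjusted p = 0.632). Without SE day 0 replicate 2 the SE change of PSMC6 was 0.49 (adjusted p = 0.0504). The second PSMC6 probe set rose in both, by 1.04 in SE (adjusted p = 0.000614) and by 0.74 in HE (adjusted p = 0.0095). PSMC4 had changes of -0.39 and -0.44, past the threshold in neither, and PSMC1, PSMC2 and PSMC3 did not pass it either, with changes from -0.09 to 0.24 in SE and from -0.29 to 0.13 in HE. The 2 PSMB2 probe sets fell in both health groups, while the second PSMD4 probe set passed the test in neither (-0.26 and -0.40).

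Of the assembly chaperones, PSMD9 fell in both health groups, by 0.70 in SE and by 0.87 in HE. PSMD10 (gankyrin) fell in HE (-0.82, adjusted p = 0.00641), with -0.39 in SE (adjusted p = 0.0888). PSMD5, PSMG1, PSMG2 and PSMG3 did not pass the test, with changes from -0.22 to -0.09 in SE and from -0.47 to -0.11 in HE. PSME4, an activator that caps the core in place of the regulatory particle, averaged 9.98 ± 0.26 in SE and 10.05 ± 0.13 in HE on day 7, against 9.44 ± 0.25 in SE and 9.41 ± 0.08 in HE on day 0. It rose by 0.54 in SE (adjusted p = 0.0268) and by 0.64 in HE (adjusted p = 0.0229). PSMF1, an inhibitor of the core in vitro, rose in SE (0.55, adjusted p = 0.0239; 0.45 without SE day 0 replicate 2, adjusted p = 0.0717), with 0.21 in HE (adjusted p = 0.408). PSME3IP1, which is known to bind the nuclear activator PSME3, rose by 0.60 in SE and by 0.59 in HE.

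The 5 immunoproteasome genes split between the catalytic subunits and the activator. PSMB9 read 11.40, 10.76 and 10.50 in SE and 10.63 and 10.78 in HE on day 7, against 9.97, 10.28 and 10.06 in SE and 9.39, 10.21 and 9.68 in HE on day 0. All 5 day 7 pools were above all 6 day 0 pools. The rise of PSMB9 was 0.78 in SE (standard error 0.26, adjusted p = 0.0282), or 1.72-fold, and 0.94 in HE (standard error 0.29, adjusted p = 0.0230), or 1.92-fold. PSMB10 read 9.67, 10.28 and 9.87 in SE and 9.89 and 9.83 in HE on day 7, against 9.62, 8.94 and 9.45 in SE and 9.37, 9.64 and 9.49 in HE on day 0, again without overlap of the days, by a margin of 0.03. It rose in SE by 0.60 (adjusted p = 0.0346), and its change in HE was 0.36 (adjusted p = 0.238). SE day 0 replicate 2 held the lowest PSMB10 value, 8.94, and without that array the change in SE was 0.40 (adjusted p = 0.107). PSMB8 overlapped between the days, at 10.96, 10.81 and 10.31 in SE and 10.69 and 10.59 in HE on day 7, against 10.70, 10.71 and 10.57 in SE and 10.12, 10.71 and 10.29 in HE on day 0, with changes of 0.03 in SE (adjusted p = 0.900) and 0.27 in HE (adjusted p = 0.363).

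The activator genes went the other way. PSME1 averaged 11.72 ± 0.13 in SE and 11.72 ± 0.07 in HE on day 7, against 12.03 ± 0.14 in SE and 12.12 ± 0.12 in HE on day 0; its changes of -0.31 and -0.40 missed the threshold (adjusted p = 0.0815 and 0.0529). PSME2 had changes of -0.46 in SE (adjusted p = 0.0540) and -0.54 in HE, where it passed narrowly (adjusted p = 0.0498).

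**Figure D2:**
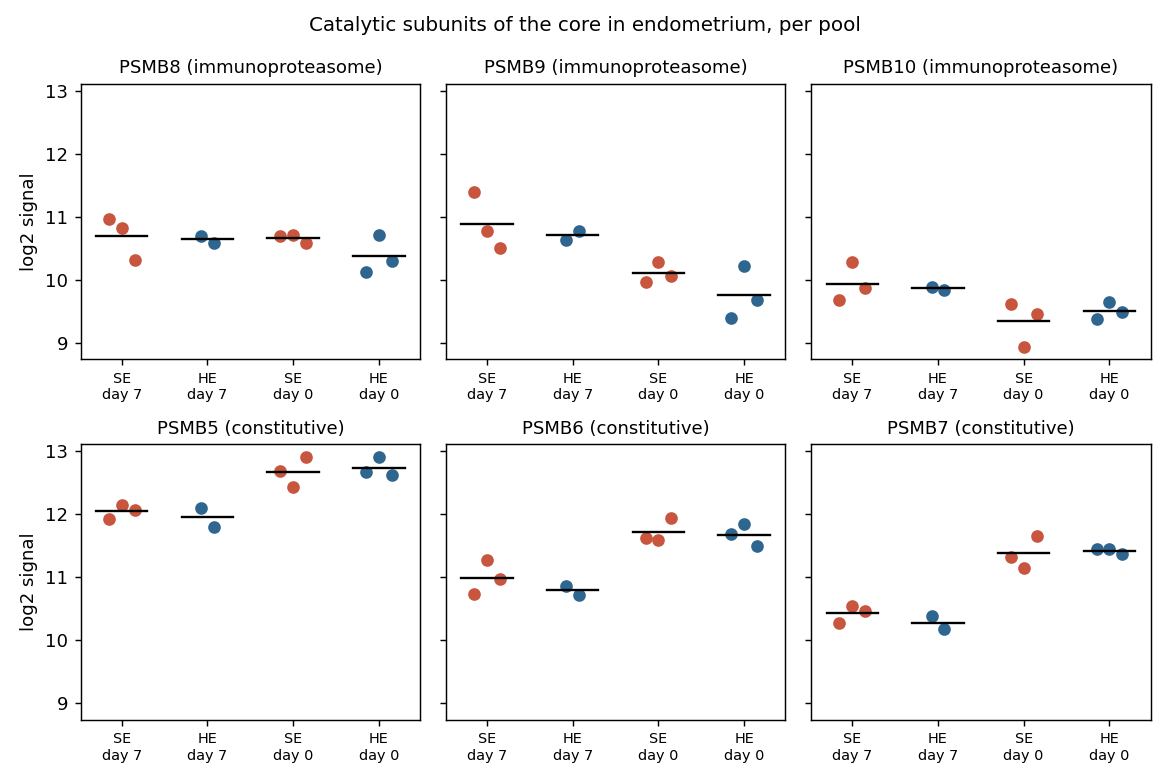
Log2 signal of the 3 inducible catalytic subunits (top) and of the constitutive subunits they replace (bottom) in each endometrium pool, with group means as bars; SE in red and HE in blue. PSMB9 and PSMB10 are higher in every day 7 pool than in any day 0 pool, PSMB8 overlaps, and PSMB5, PSMB6 and PSMB7 are lower in every day 7 pool.

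The inducible and constitutive subunits of a site therefore changed unequally, and the inducible minus constitutive difference rose. Of PSMB8 and PSMB5, only PSMB5 passed the test. On the log2 scale the difference between PSMB9 and PSMB6 shifted by 1.51 in SE and 1.82 in HE from day 0 to day 7, that between PSMB10 and PSMB7 by 1.55 in SE and 1.50 in HE, and that between PSMB8 and PSMB5 by 0.66 in SE and 1.05 in HE. The first 2 differences were higher on each of the 5 day 7 arrays than on any of the 6 day 0 arrays, and the third overlapped. Group means of these differences were negative on both days. Their sign is not interpreted, since levels of different probe sets are not comparable. These shifts describe unequal change within an array and carry no test.

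Several of the rises depended on the analysis. Alternative analyses numbered 15 in HE and 16 in SE, each count including the day change averaged over SE and HE that is given below. The PSMB9 rise kept its direction in each but missed the threshold in 7 of 15 in HE and in 4 of 16 in SE (highest adjusted p = 0.116 and 0.0971). The PSMB10 rise in SE missed it in 9 of 16. The PSMB9 rise missed it without HE day 7 replicate 1 or 2 or HE day 0 replicate 1 or 3 in HE, and without SE day 7 replicate 1 or SE day 0 replicate 1 or 3 in SE. The falls of PSMA1, PSMA5, PSMB3, PSMB6, PSMB7, PSMD2, PSMD6 and PSMD11 passed in all of these analyses in both health groups. When the day change was averaged over SE and HE, a contrast added after the data had been seen, 22 members were lower and 6 higher, beside 34.2% and 30.2% of all genes. In that contrast PSMB9 rose by 0.86 (adjusted p = 0.00313), PSMB10 by 0.48 (adjusted p = 0.0216) and PSME4 by 0.59 (adjusted p = 0.00302), PSME1 and PSME2 fell by 0.35 and 0.50 (adjusted p = 0.0116 and 0.00834), and PSMB8 changed by 0.15 (adjusted p = 0.405). All day 7 pools lay below all day 0 pools in 19 of the 40 members, against 25.5% of all genes, and above them in 3 (PSMB9, PSMB10 and PSME3IP1), against 23% of all genes.

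The genes that handle peptides after the proteasome were also divided. TAP1 and TAP2, the subunits of the transporter that carries peptides into the endoplasmic reticulum, rose by 1.06 and 0.95 in SE and by 1.61 and 1.10 in HE (adjusted p from 0.000785 to 0.0125). In the cattle annotation TAP1 lies between PSMB8 and PSMB9, and TAP2 is close by. Of the 11 genes of the class I peptide pathway measured, of 15 listed, 3 rose in SE and 3 in HE, the third being the chaperone CANX, and 6 fell in SE and 5 in HE. As shares, 27.3% rose in each health group, and 54.5% fell in SE and 45.5% in HE. Over all genes, 26.5% were called higher and 26.3% lower in SE, and 21.4% and 26.3% in HE. The falls included TAPBP, which bridges the transporter to class I molecules (-1.46 in SE and -1.07 in HE), PDIA3 and CALR of the loading complex (-1.31 and -1.38 in SE, -0.88 and -0.71 in HE) and the trimming peptidase ERAP1 (-2.68 and -1.90). B2M, the light chain of class I, had changes of -0.32 in SE and 0.04 in HE (adjusted p = 0.187 and 0.892).

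Interferon-response genes did not move one way either. Of 15 measured of 30 listed, 2 rose and 2 fell in SE, and 2 rose and 3 fell in HE. That is 13.3% each way in SE, and 13.3% higher and 20% lower in HE. These shares lay below those over all genes, 26.5% higher and 26.3% lower in SE and 21.4% and 26.3% in HE. GBP4, a guanylate-binding protein, rose by 2.86 in SE and by 2.56 in HE, and the transcription factor IRF7 by 1.60 and 1.36, whereas the antiviral genes MX1 (-1.23 and -1.51) and IFI6 (-1.74 and -1.97) fell.

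**Figure D3:**
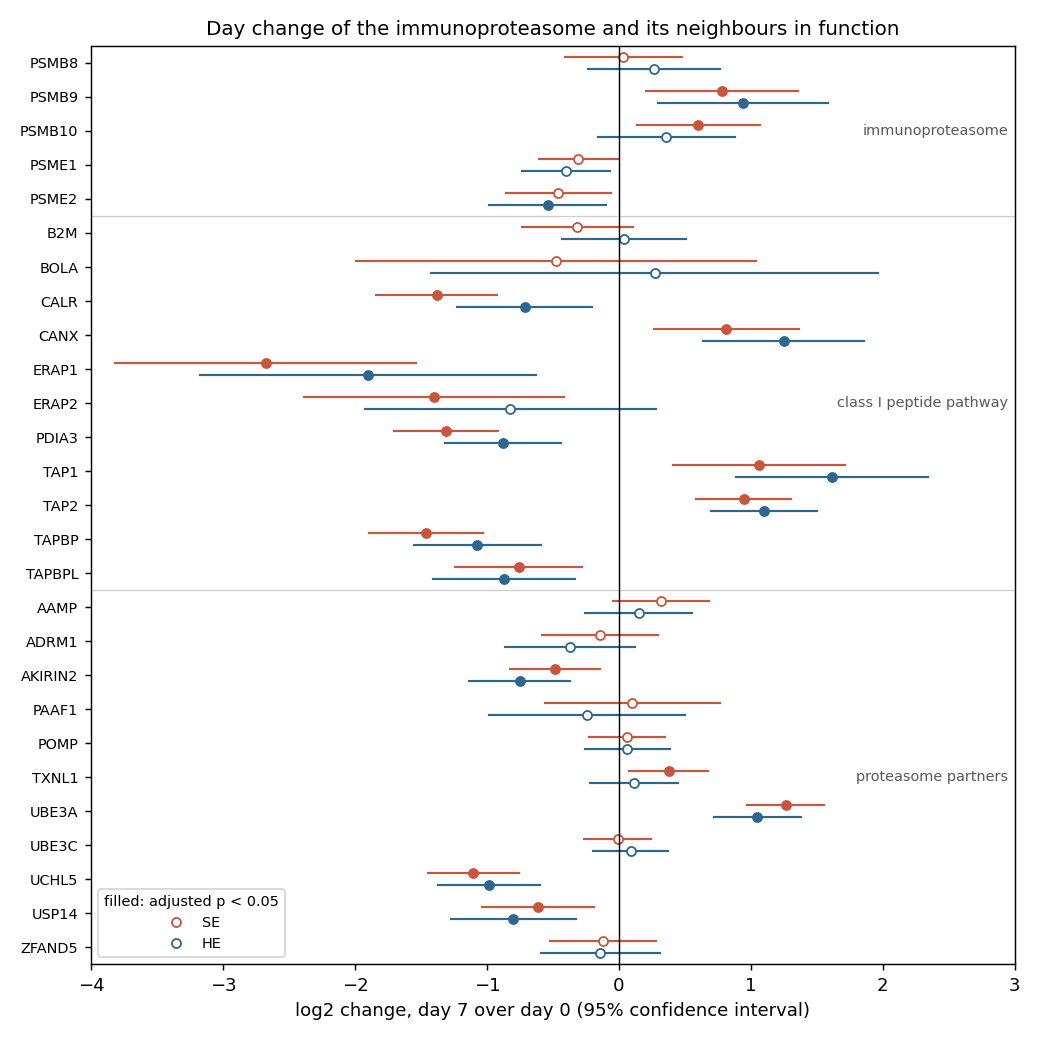
Log2 change from day 0 to day 7 of the immunoproteasome, of the class I peptide pathway and of proteins that act with the proteasome, in SE (red) and HE (blue) endometrium, with 95% confidence intervals; filled points passed the adjusted threshold of 0.05. TAP1 and TAP2 lie on the same side as PSMB9, and TAPBP, PDIA3, CALR and ERAP1 on the opposite side.

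Of 11 measured partners of the proteasome, of 14 listed, 2 rose and 3 fell in SE, and 1 rose and 3 fell in HE. The share lower, 27.3% in each health group, was near the 26.3% over all genes. The share higher was 18.2% in SE and 9.09% in HE, against 26.5% and 21.4% of all genes. The ubiquitin ligase UBE3A rose by 1.27 in SE and by 1.05 in HE. The deubiquitinases UCHL5 (-1.10 and -0.98) and USP14 (-0.61 and -0.80), which sit on the regulatory particle, and AKIRIN2, which carries proteasomes into the nucleus (-0.49 and -0.75), fell, while POMP, the maturation factor of the core, had a change of 0.06 in both (adjusted p = 0.732 in SE and 0.745 in HE). Of 7 ubiquitin-conjugation genes measured, of 11 listed, 2 fell and 0 rose in each health group, UBA6 by 0.88 in SE and by 1.02 in HE, and UBE2D3 by 0.34 and by 0.48. The share of ubiquitin-conjugation genes lower, 28.6% in each health group, was near the 26.3% over all genes. Of 10 measured shuttle factors and VCP cofactors, of 16 listed, UBQLN4 alone passed (-0.52 and -0.58). That is 10% called lower in each health group, against 26.3% of all genes.

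Among 7 measured regulators of proteasome transcription, of 9 listed, 1 rose and 1 fell in SE, and 2 rose and 2 fell in HE. That is 14.3% each way in SE and 28.6% each way in HE. Over all genes 26.5% were called higher and 26.3% lower in SE, and 21.4% and 26.3% in HE. NFE2L1, the factor that drives subunit genes when the proteasome is inhibited, rose in HE (0.76, adjusted p = 0.0122; 0.18 in SE, adjusted p = 0.424). NFYC rose in both health groups (0.58 in SE and 0.72 in HE) and NFYA fell in both (-1.10 and -1.25).

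The cells on the brush also differed between the days, and fewer cells of a type cannot be told apart from less RNA per cell in these bulk samples. Of 12 measured epithelial markers 10 fell and 2 rose in SE, and 6 fell and 2 rose in HE. The falls were 83.3% of the markers in SE and 50% in HE, against 26.3% of all genes in each. The rises were 16.7% in each, against 26.5% of all genes in SE and 21.4% in HE. The summed level of a list is the log2 of the summed linear signals of its markers, so the brightest markers weigh most. For the epithelial markers it ran from 14.20 to 14.51 in SE and from 14.47 to 14.60 in HE on day 7. On day 0 it ran from 15.49 to 15.87 in SE and from 15.43 to 15.60 in HE. Of 11 measured leukocyte markers 4 rose in SE and 5 in HE and 0 fell, among them LAPTM5, ITGB2 and CYBB, with summed levels of 10.28 to 11.47 in SE and 10.83 to 11.19 in HE on day 7, against 10.45 to 11.12 in SE and 10.21 to 10.50 in HE on day 0. Of 9 measured lymphocyte markers 5 rose and 1 fell in SE, and 4 rose and 1 fell in HE, with summed levels of 9.57 to 12.51 in SE and 10.78 to 11.46 in HE on day 7, against 11.43 to 12.15 in SE and 10.19 to 10.64 in HE on day 0. The 4 measured neutrophil markers summed to 8.19 to 9.75 in SE and 7.61 to 9.90 in HE on day 7, against 11.98 to 14.53 in SE and 10.39 to 12.10 in HE on day 0, and S100A12 fell in both. Called higher were 36.4% of the leukocyte and 55.6% of the lymphocyte markers in SE, against 26.5% of all genes. In HE these shares were 45.5% and 44.4%, against 21.4%. Called lower were 11.1% of the lymphocyte and 25% of the neutrophil markers in each health group, against 26.3% of all genes. The part of these cell types in the changes of the proteasome genes was not tested.

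SE and HE endometrium were then compared on each day, to see whether inflammation at insemination or at flushing went with a different proteasome. On day 7, 0 of the 40 members were called by limma, and 0 had an unadjusted p under 0.05. Over all genes 0% were called, and 477 of 13421 probe sets had an unadjusted p under 0.05. The median SE over HE difference of the members was 0.06, with 29 above 0, beside 0.03 over all genes, of which 56.8% were above 0. The largest 95% interval bounds over the 13 constitutive core genes were -0.42 and 0.64. The 3 members of smallest p above 0 were PSMD10 (0.36), PSMC6 (0.31) and PSMA1 (0.18), and below 0 PSMG1 (-0.18), PSMD13 (-0.25) and PSME3IP1 (-0.11), each with an adjusted p of 1. The immunoproteasome genes differed by 0.19 for PSMB9 (95% interval -0.46 to 0.83), 0.08 for PSMB10, 0.06 for PSMB8, 0.01 for PSME1 and -0.02 for PSME2. The constitutive catalytic subunits differed by 0.09 for PSMB5, 0.20 for PSMB6 and 0.15 for PSMB7. SE pools were all above HE pools for PSMB4 and PSMD10 and below them for 0 members, against 9.6% and 5.71% of all genes.

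On day 0, 0 of 40 members were called, against 0.0147% of all genes, and again 0 members had an unadjusted p under 0.05, while 1020 of 13421 probe sets did. PSMB8 averaged 10.66 ± 0.08 in SE and 10.37 ± 0.30 in HE, a difference of 0.29 (95% interval -0.15 to 0.73, adjusted p = 0.766). PSMB9 averaged 10.10 ± 0.16 in SE and 9.76 ± 0.41 in HE, a difference of 0.34 (95% interval -0.23 to 0.92, adjusted p = 0.781). The other inducible genes differed by -0.17 for PSMB10, -0.09 for PSME1 and -0.10 for PSME2, and the constitutive catalytic subunits by -0.06 for PSMB5, 0.05 for PSMB6 and -0.04 for PSMB7. The lowest p below 0 belonged to PSMA4 (-0.27), PSMG1 (-0.28) and PSMB3 (-0.22), with adjusted p from 0.696 to 0.766. SE pools were all below HE pools for PSMC2 and PSMG1 and above them for 0 members, against 8.97% and 4.2% of all genes.

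These day 0 differences were small, and 32 of the 40 were below 0, with a median of -0.09, beside -0.05 over all genes, of which 39.9% were above 0. SE day 0 replicate 2 gave the lowest of the 6 day 0 values in 33 of the 40 members, against 34.4% of all genes. Without that array the median of the members was 0.01. PSMG2, for instance, read 11.45, 10.57 and 11.57 in SE, against 11.47, 11.34 and 11.38 in HE, with replicate 2 holding the low value. On day 0 the neutrophil markers, which reflect the criterion that formed the groups, were higher in SE by 1.76 to 2.99 without passing the test (adjusted p from 0.610 to 0.724), and 9 of 11 leukocyte markers were above 0 with a median of 0.33.

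**Figure D4:**
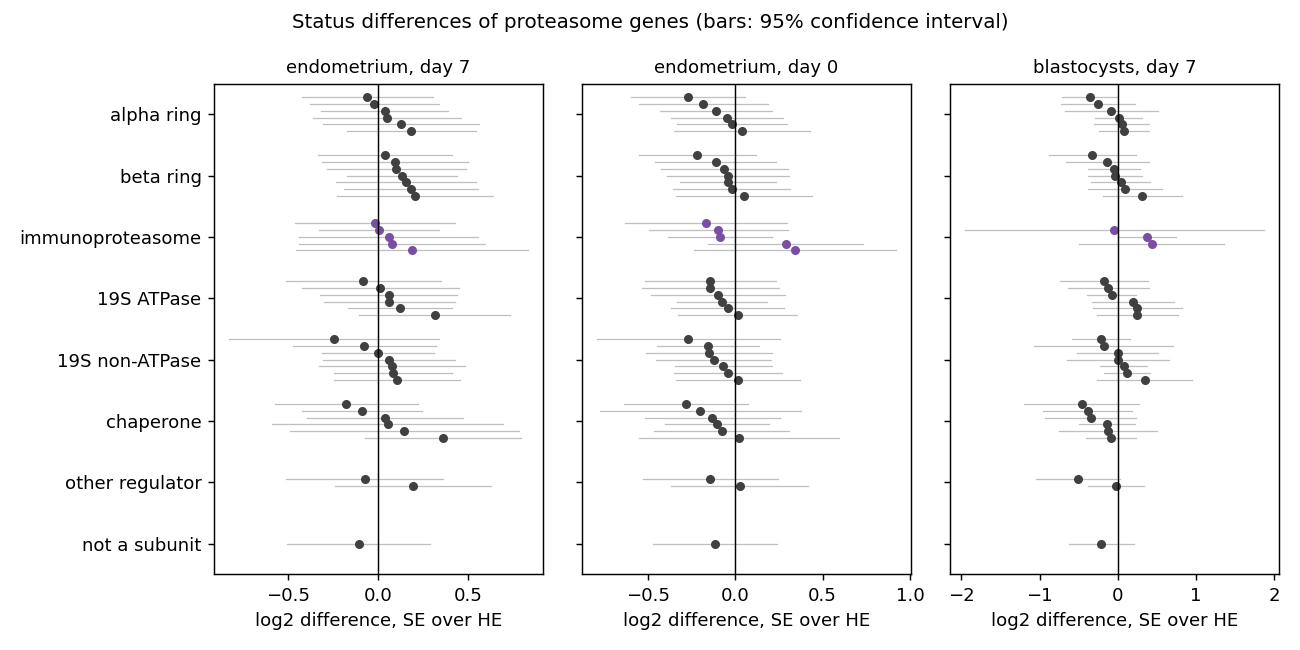
Log2 difference of SE over HE for each proteasome gene on day 7, on day 0 and in blastocysts, by role, with 95% confidence intervals; the horizontal scales differ between panels, and immunoproteasome genes are violet. In endometrium the points run from -0.25 to 0.36 on day 7 and from -0.28 to 0.34 on day 0, and none passed the adjusted threshold.

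Whether the day change itself differed between SE and HE was tested as an interaction. It called 0 of 40 members (0% of all genes, with 526 of 13421 probe sets at an unadjusted p under 0.05), and 0 members had an unadjusted p under 0.05. The largest values were PSMC6 (0.46), PSMD10 (0.44) and PSMB3 (0.40). The lowest were PSMB8 (-0.23), PSMB9 (-0.16), PSME4 (-0.10) and PSMD1 (-0.09). The median was 0.15, with 36 of 40 above 0, beside 0.09 and 62.1% over all genes, and 0.03 without SE day 0 replicate 2. The calls made in 1 health group alone, such as PSMB10, PSMC6 and PSMF1 in SE or PSMD10 in HE, are therefore not shown to differ between the groups.

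In blastocysts 2 of the 3 inducible catalytic subunits read at or next to the lowest value. PSMB8 was at the lowest value of the blastocyst arrays, 2.20, on all 5 arrays, as were 392 of the 6810 genes kept in endometrium (5.76%). PSMB10 was at that value on 4 of the 5 arrays and within rounding of it on the fifth, an HE pool. PSMB9 was measured, at 5.27, 5.43 and 7.35 in SE pools and 6.02 and 6.11 in HE pools. A single SE pool held the high PSMB9 value, and PSMB9 had the largest within-group SD of the members in blastocysts, 0.95, against a median of 0.21. PSME1 read 9.03, 9.22 and 9.98 in SE, against 9.18 and 8.77 in HE, with the same pool highest, and PSME2 6.39, 6.51 and 6.60 in SE, against 6.22 and 6.03 in HE. The constitutive subunits had signal on every array, with PSMB5 from 10.86 to 11.26 in SE, against 11.26 to 11.62 in HE, PSMB6 from 9.90 to 10.41 in SE, against 10.29 to 10.38 in HE, and PSMB7 from 10.91 to 11.13 in SE, against 11.07 to 11.08 in HE. Of the 12 leukocyte markers listed, not all of them on the array, RAC2 alone passed the filter in blastocysts. Of the 18 lymphocyte markers listed, GZMB, LCK and ZAP70 passed, and 0 neutrophil markers did.

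**Figure D5:**
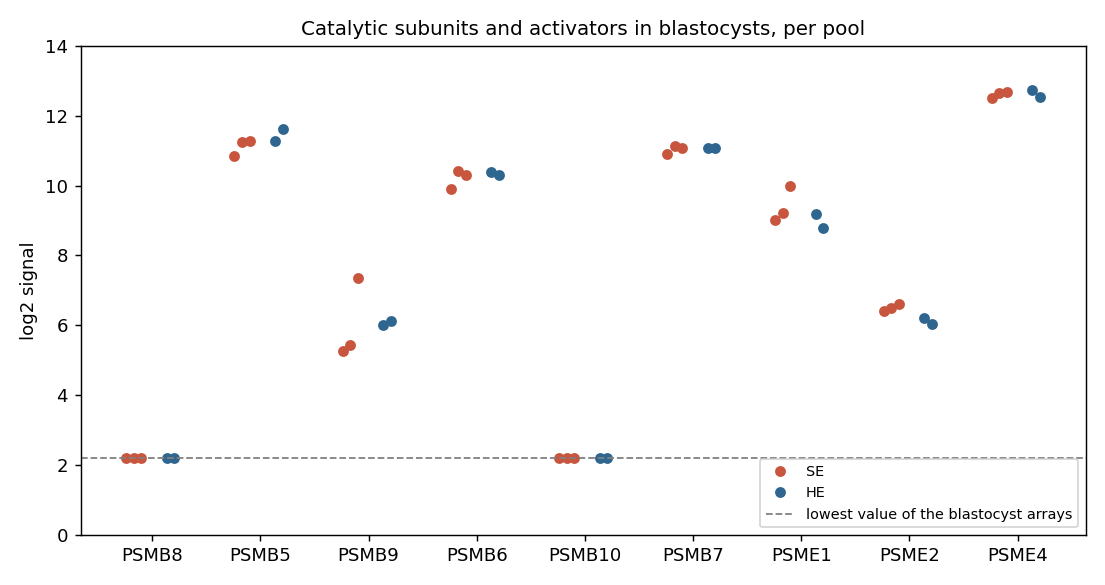
Log2 signal of the catalytic subunits and of the activators PSME1, PSME2 and PSME4 in each blastocyst pool, SE in red and HE in blue; the dashed line is the lowest value of the blastocyst arrays. PSMB8 sits on that line in all 5 pools and PSMB10 in 4 of the 5, with the fifth too close to it to be told apart in the plot, and 1 SE pool has a PSMB9 value of 7.35.

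SE and HE blastocysts were compared to see whether embryos from an inflamed uterus differed. By limma 0 of the 38 measured members were called (0% of all genes), PSME2 alone had an unadjusted p under 0.05, and 1029 of 11014 probe sets did. PSME2 was 0.37 higher in SE (95% interval 0.01 to 0.74, adjusted p = 0.530), with every SE pool above every HE pool. PSME1 differed by 0.43 (95% interval -0.50 to 1.36, adjusted p = 0.656) and PSMB9 by -0.04 (95% interval -1.95 to 1.86, adjusted p = 0.993). The other members of smallest p were PSMB4 (0.31) and PSMD2 (0.34) above 0 and PSMA6 (-0.36), PSMF1 (-0.51) and PSMG3 (-0.38) below 0, with adjusted p from 0.536 to 0.624. The constitutive catalytic subunits differed by -0.32 for PSMB5, -0.13 for PSMB6 and -0.04 for PSMB7.

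Over the members 15 blastocyst differences were above 0 and 23 below, with a median of -0.05. Over all genes the median was 0.00 and 50% were above 0. The 6 assembly chaperones were all below 0 (median -0.24, from -0.46 for PSMD5 to -0.09 for PSMG2), without a call. SE pools were all above HE pools for PSMB4, PSMD11, PSMD14 and PSME2, and all below them for PSMA6, PSMD4, PSMF1, PSMG1 and PSMG3, which is 4 and 5 of 38 members, against 11.5% and 13.6% of all genes. The GAPDH control probe sets differed by 5.47 to 5.85 between the 3′ and 5′ ends on SE blastocyst arrays and by 4.97 to 5.11 on HE blastocyst arrays. EF1A ran from 2.07 to 2.36 in SE and from 1.41 to 2.03 in HE, and actin overlapped, at 3.83 to 4.03 and 3.61 to 4.72. The part of these differences in the low signals and in the SE over HE values was not tested.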

How the data were processed

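RNA of 16 pools, amplified in 2 rounds and biotin-labelled, was hybridised to a 1-colour Affymetrix bovine array. The values deposited by the authors are log2 signals. GCRMA and limma appear, without versions, in the submitters' processing notes. Each tissue was analysed apart, because blastocyst arrays differ from endometrium arrays in their lowest value and distribution. Probe sets were named through the platform annotation, and all 46 members matched a RefSeq cattle gene table by gene number. Analyses used R 4.3.3 with limma 3.58.1, and figures Python 3.11.15, pandas 2.3.3 and matplotlib 3.10.9.

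The filter was a log2 signal above 4 on 2 or more arrays of a tissue, passed by 13421 endometrium and 11014 blastocyst probe sets. The moderated test of limma was fitted to group means on 11 endometrium arrays and, separately, on 5 blastocyst arrays, two-sided, with Benjamini-Hochberg adjustment across every probe set that passed the filter and a threshold of 0.05 on the adjusted p. The script was tested on simulated data. Each gene was counted once, by its brightest probe set. Alternatives changed the filter, normalization, variance model, probe set choice, block, arrays and, for the day change, the contrast. Precision is limited by how few arrays there are.

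Named genes were, in each contrast, the 5 immunoproteasome genes, PSMB5, PSMB6 and PSMB7, up to 12 called members per direction with the largest change, and otherwise the 3 of smallest p per direction. All other members were placed by role, with examples chosen after their values had been seen, and other lists gave up to 3 called genes per direction; B2M, POMP and NFE2L1 were further examples chosen after their values had been seen. The members and lists were chosen with earlier results of these data known. The order of neighbouring genes was read from the RefSeq cattle gene table (assembly ARS-UCD2.0); sequences are not used here.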

Additional observations from a re-analysis of the deposited data

How the results depend on the processing

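The 15 HE alternatives and 16 SE alternatives of the day comparison each include the contrast averaged over SE and HE. The falls of PSMA1, PSMA5, PSMB3, PSMB6, PSMB7, PSMD2, PSMD6 and PSMD11 passed in each alternative. With 1 array left out, 11 to 17 members were called lower in HE (19 on all arrays) and 0 to 2 higher (3 on all arrays), and 12 to 20 lower (15) and 2 to 4 higher (6) in SE. The 11 falls and 0 rises arose without HE day 7 replicate 2, when PSMB2, PSMB5 and PSMD9 missed the threshold (adjusted p = 0.0780, 0.0598 and 0.0531), and 13 falls without HE day 7 replicate 1. In SE, 12 falls arose without SE day 7 replicate 1 or SE day 0 replicate 3, and 2 rises without SE day 0 replicate 3. PSME2 in HE missed the threshold in 8 of 15 (highest adjusted p = 0.271) and PSME4 in 6 of 15 in HE and 5 of 16 in SE. With 1 array left out, all called probe sets numbered 5796 to 6505 in SE (6723 on all arrays) and 4385 to 5291 in HE (6034). Shares of all genes in each direction were not computed for these fits. Without SE day 0 replicate 2 and HE day 7 replicate 1 together, 3 members rose in SE and 1 in HE. The contrast averaged over SE and HE, chosen after seeing the data, called 8305 probe sets, with 22 members lower and 6 higher. Taking the mean over the probe sets of a gene gave 3671 calls in SE and 3321 in HE, over fewer features.

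For SE over HE, calls over all probe sets on day 0 (3) became 7 with no filter, 1 with the mean over probe sets of a gene, 0 with arrays of that day only, 1 without the pair of arrays above, and 0 to 11 with 1 array left out, 11 without SE day 0 replicate 1. On day 7 (0 calls) there were 10 with no filter and 0 to 2 with 1 array left out. The interaction (0 calls) had 1 call without the pair and 0 to 2 with 1 array left out. Blastocysts had 0 calls with each array left out, and 0 members were called in any of these. The median over members ran from -0.16 to 0.01 on day 0, from -0.01 to 0.14 on day 7 and from -0.08 to 0.01 in blastocysts with 1 array left out. The cause of these moves was not tested.

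Values near 0 changed sign. On day 0 PSMB7 was 0.015 with arrays centred on their median and PSMB5 0.000953 with array weights, and without the pair PSMB10 was 0.033, PSME2 0.040, PSMB5 0.057 and PSMB7 0.075. On day 7 PSME1 was -0.000174 after further quantile normalization, -0.023 with array weights and -0.00126 with the replicate block, PSMB8 was -0.050 with array weights, and PSME2 was 0.13 without the pair. The SE day change of PSMB8 was -0.014 after quantile normalization, -0.00440 centred and -0.067 with array weights, and the PSME2 interaction was -0.045 with array weights.

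With 1 array left out, day 0 differences ran from -0.062 to 0.13 for PSMB6, -0.31 to 0.033 for PSMB10, -0.17 to 0.040 for PSME2, -0.18 to 0.057 for PSMB5 and -0.18 to 0.075 for PSMB7. Day 7 differences ran from -0.23 to 0.00643 for PSME3IP1, -0.075 to 0.25 for PSMB8, -0.068 to 0.38 for PSMB9, -0.092 to 0.21 for PSMB10, -0.068 to 0.065 for PSME1, -0.18 to 0.13 for PSME2 and -0.058 to 0.25 for PSMB5. The SE day change of PSMB8 ran from -0.10 to 0.22, and interactions from -0.079 to 0.22 for PSME2, -0.41 to 0.036 for PSMB9 and -0.20 to 0.071 for PSMD1. In blastocysts PSMB9 ran from -0.71 to 0.33, PSMB6 from -0.24 to 0.016 and PSMB7 from -0.086 to 0.028.

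Deviations from group means of same-numbered arrays correlated between -0.27 and 0.24. For HE blastocysts the replicate numbers differ from the pool numbers in the sample titles. In groups this small the deviations from a group mean largely fix each other. These correlations therefore cannot decide whether equal replicate numbers paired the pools. With the number as a replicate block, 0 probe sets were called on day 0. The day comparison then called 14 members lower and 4 higher in SE and 17 lower and 1 higher in HE. Shares of all genes in each direction were not computed for that fit.

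With 2 or 3 pools a group, a difference whose 95% interval includes 0 is not shown to be absent, and signals at the lowest value of an array set have no order.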
